A study of Homo sapiens with 16 samples.

Results

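APOE, its chromosome 19 neighbour APOC1 and 4 receptor genes, VLDLR, LRP1, LRP8 and SORL1, were followed across cardiomyocytes made from human pluripotent stem cells (hPSC-CMs). These 6 genes of the 43388 listed were chosen by name, with earlier results of these data known, because APOE was lower after Day 16 and higher in human plasma-like medium (HPLM) than in RPMI with matched glucose. All 6 were among the 16122 genes whose mean over the libraries reached 1 TPM, the filter used here, APOC1 only through its Day 16 libraries. TPM (reads scaled by gene length and by the total of the library) allows levels of different genes to be compared.

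Apolipoprotein E is a secreted protein that coats lipoprotein particles and lets cells take them up. Apolipoprotein C1, encoded next to it, is a small exchangeable apolipoprotein known for slowing that uptake. VLDLR, LRP1 and LRP8 belong to the LDL receptor family and bind apolipoprotein E. VLDLR and LRP8 also serve as receptors for reelin, and SORL1 is a sorting receptor that combines LDL receptor repeats with a VPS10P domain. In the heart, VLDLR and lipoprotein lipase are best known for the supply of fatty acids from circulating particles.

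The study asked how the basal medium affects the maturation of hPSC-CMs. RNA was taken from the human induced pluripotent stem cell line WTC11, differentiated and held in RPMI/B27 until Day 16 (the baseline group) and then, for the other 3 groups, until Day 30 in 1 of the media RPMI/B27, RPMI_glcM/B27 and HPLM/B27. RPMI_glcM is RPMI with its glucose lowered to the 5 mM of HPLM, and HPLM is a synthetic medium whose metabolites and ions resemble those of adult human plasma. Each group held 4 wells, and the wells came from a single differentiation of cryopreserved cardiac progenitors of 1 line, so an SD here describes the spread between wells only. All groups carried the B27 supplement and none was genetically altered.

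The genes lie on 5 chromosomes of GRCh38.p14 in the RefSeq annotation. APOE spans chromosome 19 from 44905796 to 44909393 and APOC1 from 44914325 to 44919346, with 4931 bases between them and TOMM40 ending 2106 bases before APOE. VLDLR spans chromosome 9 from 2621787 to 2660056, LRP1 chromosome 12 from 57128483 to 57213361, LRP8 chromosome 1 from 53242364 to 53328070 and SORL1 chromosome 11 from 121452314 to 121633763. The 250 bases before the start of 4 of them are shown because APOE, LRP8 and SORL1 had related profiles over the groups and VLDLR did not. They were read from the RefSeq promoter table, 5′ to 3′ on the strand of the gene, and for APOE the most upstream of 3 listed starts was used. Capitals mark the GC box (GGGCGG or CCGCCC), the TATA sequence (TATAA or TTATA) and the E-box (CACGTG), searched on both strands.

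APOE, chr19:44905546-44905795, plus strand: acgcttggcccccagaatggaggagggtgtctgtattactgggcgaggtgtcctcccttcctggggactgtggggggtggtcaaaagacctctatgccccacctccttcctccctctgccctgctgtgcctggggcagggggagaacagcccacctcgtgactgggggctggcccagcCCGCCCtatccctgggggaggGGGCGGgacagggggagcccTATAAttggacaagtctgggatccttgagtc
LRP8, chr1:53328071-53328320, minus strand: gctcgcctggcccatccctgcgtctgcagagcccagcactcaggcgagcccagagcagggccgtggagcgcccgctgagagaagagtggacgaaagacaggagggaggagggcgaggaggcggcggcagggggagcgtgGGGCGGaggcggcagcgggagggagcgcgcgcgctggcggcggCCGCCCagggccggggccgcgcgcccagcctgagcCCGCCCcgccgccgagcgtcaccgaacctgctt
SORL1, chr11:121452064-121452313, plus strand: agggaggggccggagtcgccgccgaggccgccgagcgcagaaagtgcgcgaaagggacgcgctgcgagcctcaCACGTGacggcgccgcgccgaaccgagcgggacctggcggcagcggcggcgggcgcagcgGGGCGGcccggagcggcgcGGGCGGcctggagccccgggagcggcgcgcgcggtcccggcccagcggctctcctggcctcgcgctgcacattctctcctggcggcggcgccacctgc
VLDLR, chr9:2621537-2621786, plus strand: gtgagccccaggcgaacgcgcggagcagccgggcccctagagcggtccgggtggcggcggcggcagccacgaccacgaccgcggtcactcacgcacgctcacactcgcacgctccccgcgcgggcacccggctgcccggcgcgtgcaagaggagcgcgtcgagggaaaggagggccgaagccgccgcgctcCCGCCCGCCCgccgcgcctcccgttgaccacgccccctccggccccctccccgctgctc

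APOE held 2 GC boxes and, 31 bases before its start, the only TATA sequence among the 6 genes. LRP8 held 3 GC boxes, SORL1 and VLDLR 2 each, and LRP1 1. The window listed for APOC1 precedes a start inside the gene span given above and also held 1. SORL1 alone held an E-box, 177 bases before its start. Of 34788 windows of the same length, 42.6% held a GC box, 19% a TATA sequence and 6.31% an E-box. A sterol response element (TCACNCCAC or GTGGNGTGA), present in 0.882% of windows, was in 0 of the 6. The direct repeat of AGGTCA with a spacer of 4 bases, on either strand and present in 0.0144%, was likewise in 0 of the 6. The window of APOE was 64.8% G and C, that of LRP8 77.2%, that of SORL1 80.4% and that of VLDLR 78.8%, against a median of 58% over all windows.

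The libraries held 7744768 to 16183655 reads on genes, as recovered from the steps between TPM values. Between 41.0% and 48.3% of all TPM belonged to RNR2, which encodes a ribosomal RNA of mitochondria. Its partner RNR1 varied from 49.5 to 29276 TPM, and the 2 highest values, 14387 and 29276 TPM, were in replicates 3 and 4 of Day 30 RPMI/B27. All 10 cardiomyocyte markers passed the filter in these cells, and their summed level was 14661 to 19480 TPM per library. Where no other order is stated, values for the 3 Day 30 media are given in the order RPMI/B27, RPMI_glcM/B27, HPLM/B27. Against Day 16 the 16122 genes had a median log2 fold change of -0.28, -0.22 and -0.29. In the comparisons among Day 30 media their median was between -0.06 and 0.05.

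APOE had the highest mean of the 6 genes in each of the 4 groups, and its own mean was highest at Day 16 and lowest in RPMI/B27. At Day 16 it measured 112, 146, 106 and 133 TPM in the 4 libraries. The Day 30 RPMI/B27 libraries held 29.3, 27.8, 35.1 and 27.5 TPM. These groups lay far apart, with the lowest Day 16 library well above the highest of RPMI/B27. In RPMI_glcM/B27 the values were 34.9, 42.6, 40.1 and 40.0 TPM, and in HPLM/B27 59.8, 65.4, 60.4 and 63.1 TPM. HPLM/B27 lay between Day 16 and the other Day 30 media without touching either, whereas the lowest RPMI_glcM/B27 library lay just below the highest RPMI/B27 library. The group means were 124 ± 18.3, 29.9 ± 3.52, 39.4 ± 3.24 and 62.2 ± 2.54 TPM (SD, n = 4) for Day 16 and the 3 Day 30 media. APOE was counted with 157 to 854 reads per library.

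**Figure D1:**
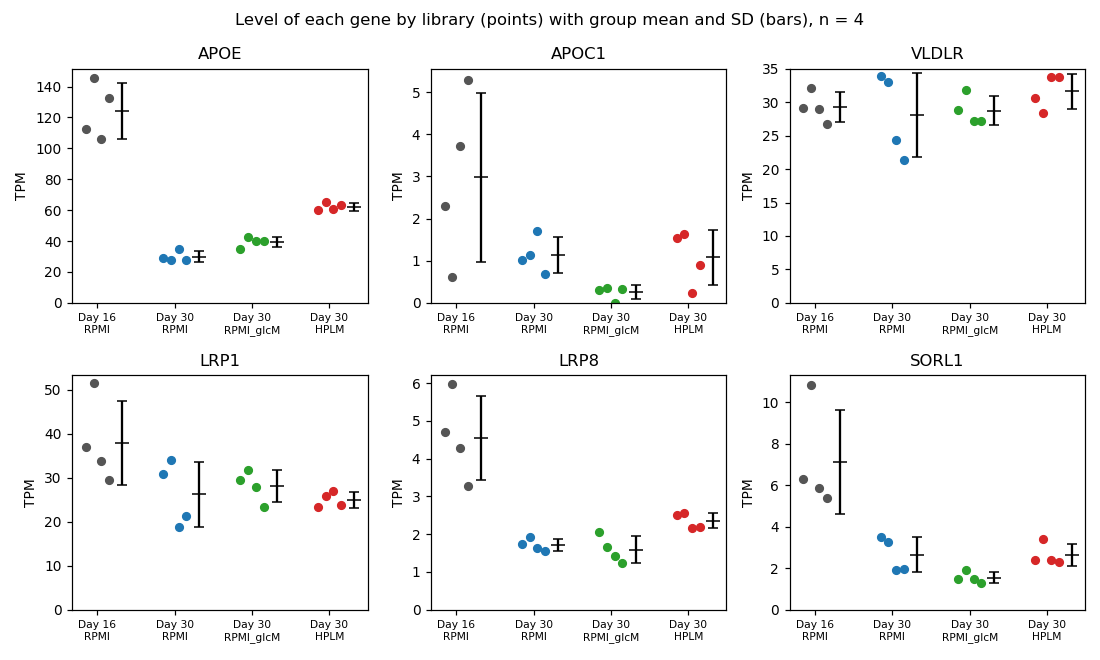
Level of each of the 6 genes in TPM (vertical axis, linear from 0) in the 16 libraries, 1 point per library, with the group mean and SD of 4 libraries as a bar. APOE sat at 106 to 146 TPM at Day 16 and at 59.8 to 65.4 TPM in HPLM/B27, above the 27.5 to 42.6 TPM of the other Day 30 media, while VLDLR stayed between 21.3 and 33.9 TPM in every group.

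The contrasts against Day 16 and between HPLM/B27 and RPMI_glcM/B27 are those by which APOE was chosen, so they are described without a test. Against Day 16 the log2 fold change of APOE was -2.01, -1.62 and -0.98 in the 3 Day 30 media. HPLM/B27 exceeded RPMI_glcM/B27 by 0.65 on the log2 scale, which is 1.58-fold in the mean TPM. In bulk RNA a lower value from fewer cells of a type and from less RNA per cell cannot be told apart. With TPM rescaled by median-of-ratios factors the log2 fold changes against Day 16 were -1.68, -1.36 and -0.64 in the same order.

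The comparisons with Day 30 RPMI/B27 were not named in the choice of the genes, but their libraries entered it, so the tests are not independent of that choice. APOE was higher in HPLM/B27 than in RPMI/B27 by 1.04 on the log2 scale (SE 0.12, 95% interval 0.79 to 1.29, limma adjusted p = 0.000134), or 2.08-fold in the mean TPM. All 4 HPLM/B27 libraries lay above all 4 of RPMI/B27, and the difference stayed between 1.00 and 1.11 with any 1 library left out. In RPMI_glcM/B27 the difference from RPMI/B27 was 0.39 (SE 0.12, 95% interval 0.14 to 0.64, limma adjusted p = 0.103). The smaller difference did not pass the threshold of 0.05, and its libraries overlapped by a single pair.

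APOC1 was close to the limit of detection. It passed the filter only through Day 16, where its mean was 2.98 TPM against 1.36 TPM over all 16 libraries. At Day 16 it was 2.29, 0.614, 3.72 and 5.30 TPM, from 7, 2, 11 and 19 reads. RPMI/B27 held 1.01, 1.14, 1.71 and 0.676 TPM from 3, 5, 10 and 3 reads. RPMI_glcM/B27 held 0.308, 0.351, 0 and 0.336 TPM from 1, 1, 0 and 1 reads. HPLM/B27 held 1.55, 1.63, 0.239 and 0.904 TPM from 6, 6, 1 and 3 reads. The RPMI_glcM/B27 libraries were the lowest group apart from replicate 3 of HPLM/B27, which fell among them, and they did not overlap with RPMI/B27. All 16 libraries together held 79 APOC1 reads against 6351 of APOE.

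With so few reads the level of APOC1 could be compared only coarsely. Between HPLM/B27 and RPMI/B27 the log2 fold change was -0.07 (95% interval -0.82 to 0.67, limma adjusted p = 0.956), an interval that holds both a lower and a higher level. Between RPMI_glcM/B27 and RPMI/B27 the adjusted p was 0.319 (limma), and no fold is given because no RPMI_glcM/B27 library held more than 1 read. As a share of the reads of both genes, APOC1 made up 1.33% at Day 16 (exact 95% interval 0.949% to 1.82%) and 2.13% in RPMI/B27 (1.32% to 3.24%). The share was 0.364% in RPMI_glcM/B27 (0.0751% to 1.06%) and 0.944% in HPLM/B27 (0.540% to 1.53%). These intervals pool the 4 libraries of a group and cover counting error only. The mean level of APOC1 itself was 1.08 TPM in HPLM/B27 and 1.13 TPM in RPMI/B27.

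VLDLR, the receptor that takes up triglyceride-rich particles in muscle, was about level over the groups. It measured 29.2, 32.1, 29.0 and 26.7 TPM at Day 16 and 33.9, 33.0, 24.3 and 21.3 TPM in RPMI/B27. RPMI_glcM/B27 held 28.8, 31.8, 27.2 and 27.1 TPM, and HPLM/B27 30.6, 28.4, 33.8 and 33.7 TPM. The 4 groups overlapped, and the highest and the lowest library of all were both in RPMI/B27, where the 2 low values were those of the libraries with the most RNR1. From RPMI/B27 the log2 difference was 0.19 in HPLM/B27 (95% interval -0.11 to 0.48, limma adjusted p = 0.585) and 0.05 in RPMI_glcM/B27 (95% interval -0.24 to 0.35, limma adjusted p = 0.903). The second changed sign under other scalings, with values near 0. The gene shares its 5′ end with VLDLR-AS1 on the other strand, listed at 3.30 to 10.4 TPM. Whether the counting used strand is not given in the sources used here, so reads of the pair cannot be told apart with certainty.

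LRP1, a large endocytic receptor that also clears proteases and their inhibitors, was highest at Day 16. It measured 36.9, 51.6, 33.8 and 29.4 TPM there and 30.9, 34.0, 18.8 and 21.2 TPM in RPMI/B27. RPMI_glcM/B27 held 29.5, 31.9, 27.9 and 23.4 TPM, and HPLM/B27 23.3, 25.8, 27 and 23.7 TPM. HPLM/B27 lay wholly below Day 16, while the other Day 30 media overlapped with it. The log2 difference from RPMI/B27 was -0.03 in HPLM/B27 (95% interval -0.43 to 0.37, limma adjusted p = 0.965) and 0.13 in RPMI_glcM/B27 (95% interval -0.27 to 0.53, limma adjusted p = 0.808). As for VLDLR, replicates 3 and 4 of RPMI/B27 were its lowest libraries, and the part of RNR1 in that spread was not tested. The antisense gene LRP1-AS was listed at 0 to 3.75 TPM.

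LRP8, the apolipoprotein E receptor 2, was a minor transcript that was highest at Day 16. It measured 4.70, 5.97, 4.27 and 3.27 TPM at Day 16 and 1.73, 1.93, 1.65 and 1.55 TPM in RPMI/B27. RPMI_glcM/B27 held 2.06, 1.67, 1.41 and 1.22 TPM, and HPLM/B27 2.5, 2.56, 2.17 and 2.20 TPM. Every Day 30 library lay below every Day 16 library, and every HPLM/B27 library lay above every library of the other Day 30 media, as it did for APOE. The log2 difference of 0.31 between HPLM/B27 and RPMI/B27 did not pass the test (95% interval -0.04 to 0.65, limma adjusted p = 0.403). Its difference between RPMI_glcM/B27 and RPMI/B27 was -0.08 (95% interval -0.42 to 0.27, limma adjusted p = 0.882). LRP8 rested on 36 to 192 reads per library.

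SORL1, which sorts cargo such as the amyloid precursor protein between endosomes and the Golgi, was also highest at Day 16. It measured 6.29, 10.8, 5.88 and 5.40 TPM at Day 16 and 3.48, 3.26, 1.93 and 1.95 TPM in RPMI/B27. RPMI_glcM/B27 held 1.48, 1.91, 1.49 and 1.30 TPM, and HPLM/B27 2.40, 3.41, 2.42 and 2.29 TPM. RPMI_glcM/B27 lay below the other 3 groups without overlap, narrowly so from replicate 3 of RPMI/B27, while HPLM/B27 and RPMI/B27 overlapped. The log2 difference of -0.50 between RPMI_glcM/B27 and RPMI/B27 did not pass the test (95% interval -0.94 to -0.06, limma adjusted p = 0.254). With median-of-ratios rescaling the same difference was -0.55 and passed it (limma adjusted p = 0.0158), and over all alternatives the adjusted p ranged from 0.0107 to 0.457. Between HPLM/B27 and RPMI/B27 the difference was 0.01 (95% interval -0.43 to 0.44, limma adjusted p = 0.992).

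**Figure D2:**
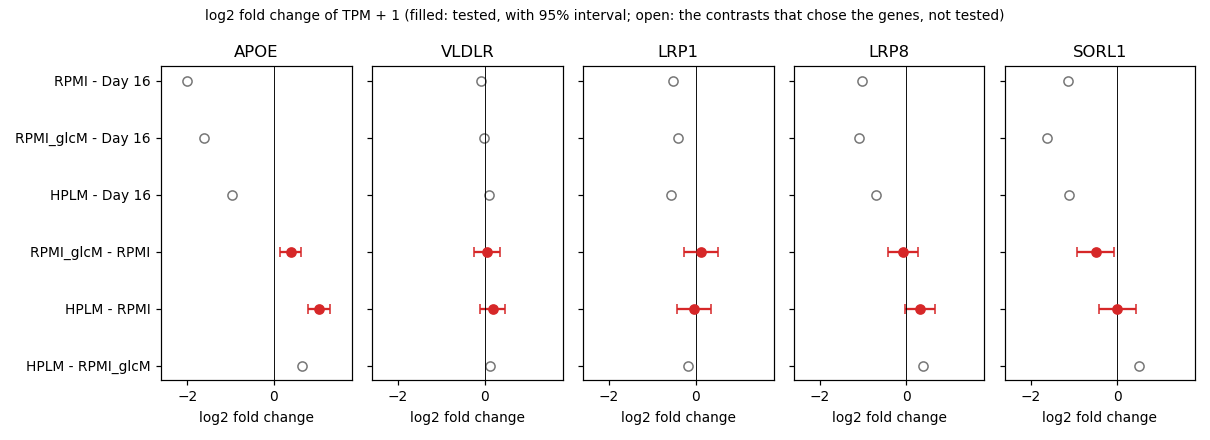
Difference in log2(TPM + 1) (horizontal axis) of APOE and the 4 receptor genes in the 6 comparisons (rows). Filled points with 95% intervals are the tested comparisons with RPMI/B27, open points are the contrasts by which the genes were chosen, and the 79 reads of APOC1 are left out. The interval of APOE in HPLM/B27 against RPMI/B27 runs from 0.79 to 1.29, and the intervals of the receptor genes in that comparison all include 0.

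Of the 6 genes, 1, APOE, was called between HPLM/B27 and RPMI/B27, where 2.41% of all genes were called. Its direction, higher, was that of 1.51% of all genes. The genes were chosen for the behaviour of APOE in these libraries, so the counts given here are not independent of that choice. No enrichment is read from them. Without regard to the test, 2 of the 6, APOE and LRP8, were higher in HPLM/B27 with no overlap, as were 4.13% of all genes. Between RPMI_glcM/B27 and RPMI/B27, limma called 0 of the 6 and 2.2% of all genes. An unadjusted p under 0.05 was reached by 3 of the 6 (APOE, APOC1 and SORL1) and by 2408 of all 16122 genes. Limma-voom on recovered reads called 1 of the 6 (SORL1) and 1993 of its 15423 genes. In the same comparison 2 of the 6, APOC1 and SORL1, were lower with no overlap, as were 2.6% of all genes. For APOC1 this rests on 0 or 1 read per RPMI_glcM/B27 library. The median log2 fold change of the 6 was 0.10 in HPLM/B27 and -0.01 in RPMI_glcM/B27. The comparisons share the RPMI/B27 libraries.

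For the contrasts used in the choice, counts are given without a reading. Lower than Day 16 with no overlap were 3 of the 6 in RPMI/B27 (16.2% of all genes), 4 of the 6 in RPMI_glcM/B27 (25.9%) and 4 of the 6 in HPLM/B27 (32.1%). APOE, LRP8 and SORL1 were among them in each medium, with APOC1 in RPMI_glcM/B27 and LRP1 in HPLM/B27. APOC1 passed the filter only through Day 16 and held 0 or 1 read per RPMI_glcM/B27 library, so its place there carries no weight. Higher in HPLM/B27 than in RPMI_glcM/B27 with no overlap were 3 of the 6, APOE, LRP8 and SORL1 (2.41% of all genes). From Day 16 to the 3 Day 30 media the log2 fold changes were -1.01, -1.09 and -0.71 for LRP8. For SORL1 they were -1.13, -1.63 and -1.12, for LRP1 -0.53, -0.40 and -0.56, and for VLDLR -0.08, -0.03 and 0.11.

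The receptors were set among all 19 genes of the LDL receptor family and the VPS10P receptors by mean TPM, which corrects for length. SORT1, the sorting receptor sortilin, was the highest of the 19 in every group, with 75.9 TPM at Day 16 and 46.4 to 52.7 TPM at Day 30. VLDLR took 9.32% ± 0.393 (SD, n = 4) of the summed TPM of the family at Day 16, where it ranked 5, and 12.3% ± 0.527, 12.9% ± 1.32 and 14% ± 1.46 in the 3 Day 30 media, where it ranked 3, 2 and 2. The sum itself was 314 ± 26.6 TPM (SD, n = 4) at Day 16 and between 224 and 230 TPM in the means of the Day 30 groups, while the level of VLDLR was about the same. LRP1 took between 11% and 12.6% of the sum in each group. SORL1 went from rank 10 with 2.24% at Day 16 to rank 18 with 0.692% in RPMI_glcM/B27, and LRP8 from rank 12 with 1.44% to rank 17 with 0.706%. In HPLM/B27 SORL1 ranked 12 and LRP8 14.

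**Figure D3:**
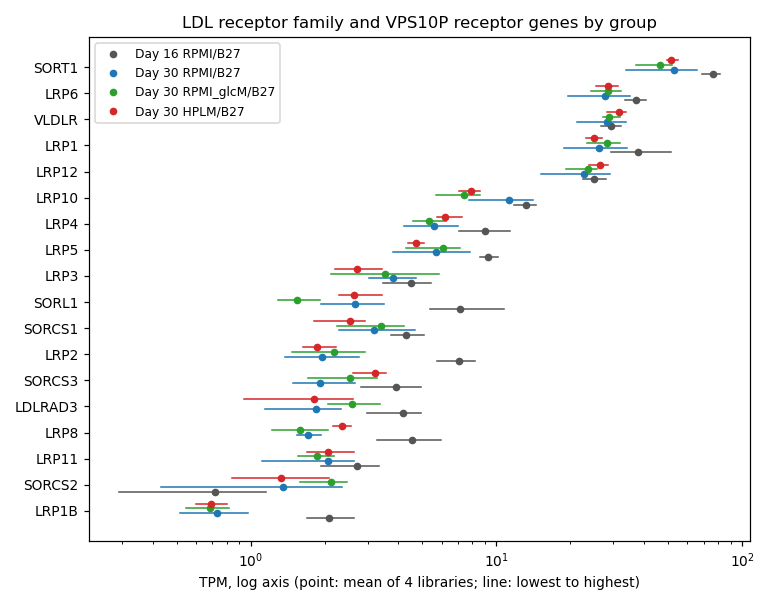
Level in TPM (horizontal log axis) of 18 of the 19 LDL receptor family and VPS10P receptor genes by group, with points for the mean of 4 libraries and lines from the lowest to the highest library. SORT1 is highest in all 4 groups, VLDLR and LRP1 sit between 18.8 and 51.6 TPM, and LRP8 and SORL1 reach at most 10.8 TPM.

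The other 15 receptors of these families were lower at Day 30 or did not pass the test, apart from SORCS2. Against Day 16, 7 were lower in RPMI/B27, where 19.9% of all genes were called. In RPMI_glcM/B27 6 were lower and SORCS2 was higher (21.1% of all genes called), and in HPLM/B27 9 were lower (25.4%). LRP2, the endocytic receptor megalin, showed the largest fall of the list in all 3 media, from 7.07 TPM at Day 16 to 1.95, 2.18 and 1.86 TPM (log2 fold changes -1.46, -1.36 and -1.49, limma adjusted p of 0.000149 or less). LRP1B, a close relative of LRP1, was lower by 0.83, 0.87 and 0.86 on the log2 scale (limma adjusted p of 0.0042 or less). The median of the list was -0.45, -0.47 and -0.56, each below the median of all genes. With median-of-ratios rescaling, which removes the shift of all genes, 4, 6 and 5 of the list were lower and 0, 1 and 2 higher. Of all 16122 genes, 1437, 2282 and 2012 were lower and 1389, 2156 and 2074 higher with that rescaling. Among Day 30 media limma called 0 of the 15, with 1 at an unadjusted p under 0.05 in RPMI_glcM/B27 and 2 in HPLM/B27 against RPMI/B27. Of all 16122 genes, 2408 and 2447 had such a p in these comparisons.

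The adaptors and chaperones of these receptors were lower than Day 16 or not called. Of 11 genes 10 were tested, and 6, 4 and 6 were lower than Day 16 and 0 were higher. Of all genes 19.9%, 21.1% and 25.4% were called, and 10.5%, 15.8% and 11.8% of those calls were higher than Day 16. DAB2, a clathrin adaptor that binds the tails of LDL receptor family members, was lower by 0.84, 1.07 and 1.19 on the log2 scale (limma adjusted p = 0.012, 0.0018 and 0.00082). DAB1, the adaptor that relays reelin signals from VLDLR and LRP8, was lower in all 3 media, at 22.5, 19.7 and 17.1 TPM against 31.8 TPM at Day 16 (limma adjusted p = 0.037, 0.0060 and 0.0013). NUMB and SNX17 had the highest means of the list over all 16 libraries. At Day 16 they measured 39.0 and 30.0 TPM, and DAB1 and SHC1 lay between them. After median-of-ratios rescaling 4 of the list were lower in each medium and 0 higher. Of all 16122 genes, 1437, 2282 and 2012 were then lower and 1389, 2156 and 2074 higher.

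RELN, which encodes reelin, was among the ligands that fell. It was 64.8 ± 7.44 TPM at Day 16 and 30.4 ± 7.71, 24.9 ± 3.15 and 27 ± 1.76 TPM (SD, n = 4) in the 3 Day 30 media, log2 fold changes of -1.10, -1.35 and -1.23 (limma adjusted p of 0.00031 or less). Of 12 ligand genes tested, 6, 6 and 5 were lower than Day 16 (19.9%, 21.1% and 25.4% of all genes called). They include A2M, the protease inhibitor alpha-2-macroglobulin, and MDK, the growth factor midkine, both ligands of LRP1. SPON1, which encodes the secreted protein F-spondin, was higher in RPMI/B27 than at Day 16 by 0.98 (limma adjusted p = 0.0053).

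Between Day 30 media the ligands that differed were lower than in RPMI/B27. MDK was 80.5 ± 9.09 TPM in HPLM/B27 and 136 ± 3.14 TPM in RPMI/B27 (log2 fold change -0.76, limma adjusted p = 0.00082), and the call held under all 8 alternatives and with any library left out. SPON1 was lower in HPLM/B27 by 1.01 (limma adjusted p = 0.017) and A2M by 0.68 (limma adjusted p = 0.036). In RPMI_glcM/B27, TFPI (an inhibitor of coagulation) was lower by 0.91 and A2M by 0.77 on the log2 scale (limma adjusted p = 0.011 and 0.021). With a single library left out, the A2M call was kept in 1 of 8 fits in HPLM/B27 and in 4 of 8 in RPMI_glcM/B27, and the SPON1 call in 6 of 8.

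Around APOE on chromosome 19, TOMM40, a subunit of the mitochondrial protein import pore, was higher in HPLM/B27 than in RPMI/B27, as APOE was. TOMM40 was 32.2 ± 6.57 TPM at Day 16 and 17.9 ± 4.08, 33.2 ± 1.43 and 29.6 ± 2.84 TPM in the 3 Day 30 media (SD, n = 4). It was higher than in RPMI/B27 by 0.88 in RPMI_glcM/B27 (limma adjusted p = 0.010) and by 0.72 in HPLM/B27 (limma adjusted p = 0.031), and lower in RPMI/B27 than at Day 16 by 0.82 (limma adjusted p = 0.0034). The order of the groups was not that of APOE, which stood far higher at Day 16 than in the 2 media with matched glucose. Leaving out replicate 1, 2 or 3 of HPLM/B27 ended the TOMM40 call in that medium, and a fit of the 2 groups alone ended both. NECTIN2, a cell adhesion molecule, was lower than Day 16 in all 3 media by 0.43, 0.55 and 0.66, and CLPTM1 in RPMI/B27 by 0.55. These Day 16 calls were lost with median-of-ratios rescaling, under which BCAM, the highest of the neighbours, was called higher in RPMI_glcM/B27 and HPLM/B27. APOC1P1, APOC4, APOC4-APOC2 and APOC2 were listed at 0 in all 16 libraries.

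Of 20 other apolipoprotein genes 9 were tested, and 0 of them were called higher in HPLM/B27 than in RPMI/B27. With 1.51% of all genes called higher there, 0 of 9 is near that share. In the same comparison 3 of the 9 were lower, as were 144 of all 16122 genes. APOB, the structural protein of LDL, was 34.7 ± 9.54 TPM at Day 16 and 7.33 ± 2.81, 3.14 ± 1.45 and 2.5 ± 0.959 TPM (SD, n = 4) in the 3 Day 30 media. APOA1, the main protein of HDL, was 39.2 ± 7.84 TPM at Day 16 and 20.2 ± 6.48, 8.78 ± 0.964 and 9.32 ± 2.59 TPM (SD, n = 4). Unlike APOE, both were lower in HPLM/B27 than in RPMI/B27, by a log2 fold change of -1.23 for APOB and -1.02 for APOA1 (limma adjusted p = 0.035 and 0.023), calls kept in 2 and 4 of 8 fits with a library left out. APOA2, the second protein of HDL, was lower than in RPMI/B27 by 1.66 in HPLM/B27 and by 1.6 in RPMI_glcM/B27 (limma adjusted p = 0.038 and 0.049). With a single library left out, the APOA2 call was kept in 1 of 8 fits in HPLM/B27 and in 0 of 8 in RPMI_glcM/B27, and a fit with the replicate number as a block ended it in both. APOL2 was higher than Day 16 in RPMI/B27 and HPLM/B27 by 0.55 and 0.69 (limma adjusted p = 0.038 and 0.0094).

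APOB, APOA1 and APOA2 are also in a list of 15 hepatic endoderm-like markers, which moved with the groups. Their summed level was 483 to 859 TPM at Day 16 and 332 to 589, 96.3 to 221 and 73.3 to 215 TPM in the 3 Day 30 media. Of 12 tested, 9, 10 and 10 were lower than Day 16 and ALB, the albumin gene, was higher in each medium (19.9%, 21.1% and 25.4% of all genes called). Against RPMI/B27, 8 were lower in HPLM/B27 and 6 in RPMI_glcM/B27 (2.41% and 2.2% of all genes called), among them ALB at 49.9 and 78.1 against 242 TPM. With a library left out, the ALB call was kept in 8 of 8 fits in HPLM/B27 and 4 of 8 in RPMI_glcM/B27. The call of AFP, another of the markers, was kept in 4 and 2 of 8. APOE is itself made by liver cells. It was lower at Day 30 as these markers were, but between RPMI/B27 and HPLM/B27 it differed in the opposite direction to them. The part of such cells in the APOE level was not tested.

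**Figure D4:**
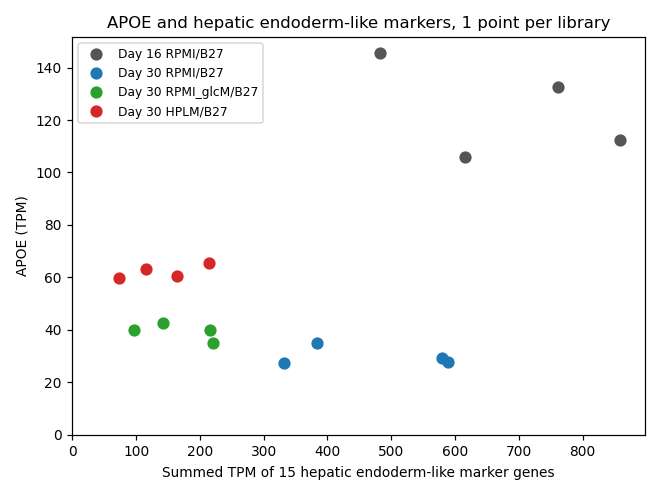
APOE in TPM (vertical axis) against the summed TPM of the 15 hepatic endoderm-like markers (horizontal axis), 1 point per library, coloured by group. The Day 16 libraries are high on both axes, while the HPLM/B27 libraries combine 59.8 to 65.4 TPM of APOE with 73.3 to 215 TPM of the markers and the RPMI/B27 libraries combine 27.5 to 35.1 TPM with 332 to 589 TPM.

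Markers of other cells were measured beside these values. Macrophages are a known source of APOE, and 5 of 10 macrophage-like markers (AIF1, C1QA, C1QB, C1QC and TYROBP) were listed at 0 in all libraries, with a summed level of 0.759 to 3.32 TPM, mostly CD68. Fibroblast-like markers (12 genes, 8 tested) summed to 249 to 452 TPM at Day 16 and 156 to 309, 123 to 169 and 127 to 192 TPM in the 3 Day 30 media, with COL3A1 and COL1A1 highest. Smooth muscle-like markers (7 genes, 6 tested, MYH11 at 0) summed to 398 to 848, 249 to 1014, 271 to 356 and 289 to 510 TPM in the same order, with ACTA2 and CNN1 highest. Of 10 endothelial-like markers only KDR was tested, at 47.0 TPM at Day 16 and 19.5 to 25.7 TPM at Day 30. Epicardial-like markers (8 genes, 3 tested) summed to 91.0 to 172 TPM over all libraries, led by KRT19 and TBX18. The median sum of each of these 5 lists was highest at Day 16, as the level of APOE was, and their part in the levels of the 6 genes was not tested.

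Genes of cholesterol efflux and of the liver X receptors, nuclear receptors that respond to oxysterols, were compared because APOE is a classical target of these receptors. SREBF1, another such target and a regulator of fatty acid synthesis, was 7.60 ± 3.16 TPM in RPMI/B27 and 14.4 ± 2.42 TPM in HPLM/B27 (SD, n = 4), higher by 0.91 on the log2 scale (limma adjusted p = 0.042). SCD, which desaturates fatty acids, was higher by 0.77, at 102 ± 21.6 against 59.9 ± 13.5 TPM (limma adjusted p = 0.018). At Day 16 SCD was 159 ± 12.8 TPM. The SREBF1 call was kept in 2 of 8 fits with a library left out and the SCD call in 6. Between HPLM/B27 and RPMI/B27 limma called these 2 of the 16 genes tested in this list, against 2.41% of all genes. Limma-voom called 7 of the list and 2484 of its 15423 genes. In RPMI_glcM/B27 against RPMI/B27, limma called 0, with 4 at an unadjusted p under 0.05 and 4 called by limma-voom. Of all genes, 2408 of 16122 had such a p there and limma-voom called 1993 of 15423. NR1H2, which encodes liver X receptor beta, was 22.5 to 30.4 TPM in the group means. ABCA1, LPCAT3, PLTP and NR1H3 of the same list were not called between HPLM/B27 and RPMI/B27. Their log2 fold changes were 0.21, 0.16, -0.02 and -0.36 (limma adjusted p of 0.477 or more).

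Against Day 16 the same list was mixed. CYP27A1, which makes an oxysterol ligand of these receptors, was lower in all 3 media, from 3.61 TPM at Day 16 to 0.572, 0.749 and 0.261 TPM (limma adjusted p of 0.0011 or less). RXRA, the partner of the liver X receptors, was lower by 0.87, 0.63 and 0.69. SREBF1 was higher by 0.81 in RPMI_glcM/B27 and 0.84 in HPLM/B27 (limma adjusted p = 0.017 and 0.012). In all, 7, 6 and 5 genes were lower and 0, 1 and 1 higher (19.9%, 21.1% and 25.4% of all genes called). With median-of-ratios rescaling 6, 4 and 3 were lower and 1, 3 and 2 higher. Of all 16122 genes, 1437, 2282 and 2012 were then lower and 1389, 2156 and 2074 higher.

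Of 19 genes of cholesterol synthesis and of the sterol response, 13, 7 and 14 were lower than Day 16, and INSIG2 was higher in HPLM/B27 (19.9%, 21.1% and 25.4% of all genes called). SC5D, a late enzyme of the pathway, went from 189 ± 25.4 TPM to 92.5 ± 31.2, 64 ± 9.62 and 64.5 ± 7.89 TPM (SD, n = 4). SQLE, which commits the pathway to sterols, was lower by 1.11, 1.14 and 1.45 on the log2 scale (limma adjusted p of 0.00044 or less). The medians were -0.59, -0.39 and -0.61, and rescaling by median-of-ratios factors left 6, 8 and 7 genes lower and 0, 1 and 1 higher. Of all 16122 genes, that rescaling called 1437, 2282 and 2012 lower and 1389, 2156 and 2074 higher. Between HPLM/B27 and RPMI/B27 limma-voom called 5 of the list and 2484 of its 15423 genes. INSIG2, a sterol sensor of the endoplasmic reticulum, was the only gene of the list that limma called there, at 41.2 against 25.1 TPM (log2 fold change 0.69, limma adjusted p = 0.032). The call was lost on leaving out replicate 3 or 4 of either group.

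Of the genes listed for the uptake and lipolysis of lipoprotein lipids, SDC4 and SCARB2 had the highest means. Of 13 tested, 3, 4 and 3 were lower than Day 16 and 0, 2 and 0 higher, where 19.9%, 21.1% and 25.4% of all genes were called. SDC2, a heparan sulfate proteoglycan, was lower by 0.72, 0.82 and 0.93 on the log2 scale (limma adjusted p of 0.0095 or less). SDC1 was lower in RPMI/B27 and RPMI_glcM/B27, and SCARB1, the HDL receptor, was higher in RPMI_glcM/B27 by 0.78 (limma adjusted p = 0.033).

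SORL1 works with retromer on the traffic of the amyloid precursor protein. The 22 genes of these functions that were tested showed 5, 4 and 5 lower and 0, 1 and 0 higher than Day 16, a share near the 19.9%, 21.1% and 25.4% called of all genes. BACE1, the beta-secretase, was lower in all 3 media by 0.69, 0.78 and 0.71 (limma adjusted p = 0.0077, 0.0026 and 0.0045). APP, the precursor protein, was lower in HPLM/B27 by 0.46, from 273 ± 33.8 to 197 ± 16.5 TPM (SD, n = 4), and APLP2, its relative and the highest gene of the list, in all 3 media by 0.38, 0.80 and 0.82 (limma adjusted p = 0.048, 0.00035 and 0.00030). Between RPMI_glcM/B27 and RPMI/B27 limma-voom called 4 of the list and 1993 of its 15423 genes. SNX2, a sorting nexin, was the only gene of the list that limma called there, higher by 0.53 (limma adjusted p = 0.027). The SNX2 call was kept in 3 of 8 fits with a library left out. Between HPLM/B27 and RPMI_glcM/B27, limma called 11 of all genes (0.0682%), and 0 in any of the lists named here.

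Over the 16 libraries LRP8 and SORL1 had the most alike profiles of the 6 genes (Pearson r of log2(TPM + 1) 0.93). APOE had r of 0.89 with LRP8 and 0.79 with SORL1, and 0.18 with VLDLR. All genes of a library share its depth and group, so these values describe the libraries and carry no test. Among 6627 other genes with at least 10 TPM in the mean and 10 reads in every library, TDGF1, which encodes an embryonic co-receptor of NODAL, was most like APOE (r = 0.94). It had 52.5, 11, 14.3 and 24.7 TPM at Day 16 and in the 3 Day 30 media, the same ranking as APOE. It was followed by the mitochondrial transfer RNA gene TRNR (r = 0.93), the laminin gene LAMA1 (0.92), the pyruvate dehydrogenase gene PDHA1 (0.90) and SPECC1 (0.90).

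LAMA1 was also the gene most like LRP8 (r = 0.95), followed by DLG3 (0.94) and MEF2C (0.93). For SORL1 these were DSG2 (0.96), FN1 (0.96) and DLG3 (0.96), and for LRP1 MANBA (0.98), CSNK2A2 (0.97) and TBC1D5 (0.97). FN1, which encodes fibronectin, was 399 TPM at Day 16 and 110, 70.4 and 104 TPM in the 3 Day 30 media, and like SORL1 it was lowest in RPMI_glcM/B27. For VLDLR the closest were ANKRD27, VWA8 and SDC4 (0.90, 0.90 and 0.89), whose means likewise varied little. For APOC1 they were ACAT2, RPL22L1 and LACC1 (0.87, 0.85 and 0.84), at the precision that 79 reads allow.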

How the data were processed

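RNA-seq of 16 libraries was used, 4 wells in each of 4 groups as the labels give them. The deposited description speaks of 3 wells per medium, and all 4 labelled wells were used. The authors prepared stranded total RNA libraries, mapped reads with STAR 2.5.3a to hg38 and decoy sequences and counted them with featureCounts 2.0.3 in an R 4.1.3 workflow with DESeq2. They deposited TPM for 43388 genes, which sum to 1000000 per library. The annotation, gene lengths, use of strand and TPM tool are not given in the sources used here.

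The 16122 genes whose mean reached 1 TPM were compared on log2(TPM + 1), with all 4 groups in the fit, by limma 3.58.1 in R 4.3.3 (trend) with Benjamini-Hochberg adjustment and a threshold of 0.05. A fold change on this scale understates the change of low genes. The APOC1 to APOE ratio was compared by an exact permutation test. Whole reads were recovered from ratios of TPM between libraries for all 31047 genes above 0, and 1924 tested genes had a mean under 10 reads. The absolute tolerance was 0.0001 plus a small relative term, with a wider absolute tolerance allowed where that failed. The 6 genes and all gene lists were chosen with earlier results of these data known. From each list the text names up to 4 called genes per comparison by size of change and the 2 highest genes, and the genes most like each of the 6 (5 for APOE, 3 for the others). ABCA1, LPCAT3, PLTP and NR1H3 are named besides. Alternatives were a pseudocount of 0.1, all genes above 0, at least 5 TPM, median-of-ratios rescaling, only the 2 groups compared, a replicate block, RNR1 as a covariate, limma-voom on recovered reads with a mean of at least 10, and each library left out. The fits were tested on simulated data. Some genes of the lists enter the counts and are not reported here by name. Coordinates and promoters are from RefSeq on GRCh38.p14, where all 6 genes matched by symbol. Python 3.11.15, numpy 2.4.6, scipy 1.17.1, pandas 2.3.3 and matplotlib 3.10.9 were used.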

Additional observations from a re-analysis of the deposited data

Results flagged for a closer look

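In groups of 4 libraries, a library was singled out when its gap to the nearest other passed Dixon's critical share of the range of the group. Of 24 groups of values (6 genes in 4 groups) 3 were, and chance singles out about 1 in 20. APOC1 in replicate 3 of RPMI_glcM/B27 was the lowest of its group at 0 TPM, where the other 3 libraries held 1 read each. SORL1 in replicate 2 of Day 16 was the highest of its group at 10.8 TPM, where the others held 5.40 to 6.29 TPM, and the same library was also the highest of its group for APOE, VLDLR, LRP1 and LRP8. SORL1 in replicate 2 of HPLM/B27 was the highest of its group at 3.41 TPM, where the others held 2.29 to 2.42 TPM.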

How the results depend on the processing

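The higher APOE in HPLM/B27 than in RPMI/B27 kept its direction and its call under all 8 alternatives (log2 fold change 1.04 to 1.07, limma adjusted p from 9.92e-05 to 0.00856) and with each library left out (1.00 to 1.11). Against Day 16, APOE was -1.68 and -1.72 in RPMI/B27, -1.36 and -1.39 in RPMI_glcM/B27 and -0.64 and -0.65 in HPLM/B27 with median-of-ratios rescaling and with limma-voom. SORL1 in RPMI_glcM/B27 against RPMI/B27 became called with rescaling (-0.55), RNR1 as a covariate (-0.63) and limma-voom (-0.80). Differences near 0 changed sign under rescaling, RNR1 as a covariate and limma-voom: VLDLR against Day 16 was 0.25, 0.088 and 0.26 in RPMI/B27 and 0.23, 0.071 and 0.24 in RPMI_glcM/B27, and VLDLR in RPMI_glcM/B27 against RPMI/B27 was -0.017, -0.017 and -0.014. With RNR1 as a covariate LRP1 in RPMI_glcM/B27 was -0.012, and APOC1 and SORL1 in HPLM/B27 were 0.063 and -0.15 against RPMI/B27. With a library left out, VLDLR ranged from -0.17 to 0.040 and from -0.073 to 0.020 in RPMI/B27 and RPMI_glcM/B27 against Day 16. Against RPMI/B27 it ranged from -0.065 to 0.15 in RPMI_glcM/B27, LRP1 from -0.0085 to 0.27 there and from -0.17 to 0.10 in HPLM/B27, APOC1 from -0.21 to 0.15 and SORL1 from -0.090 to 0.11 in HPLM/B27. The log2 ratio of APOC1 to APOE (1 TPM added to each) against RPMI/B27 was -1.15 in RPMI_glcM/B27, where APOC1 had 0 or 1 read a library, and -1.11 in HPLM/B27, where it repeats the difference of APOE (two-sided exact permutation test, p = 0.0286 for each, the smallest that 4 against 4 can give). It was -2.37 and -2.01 in RPMI_glcM/B27 and -1.31 and -1.28 in HPLM/B27 with a pseudocount of 0.1 and as a ratio of recovered reads, and -1.23 to -1.04 and -1.25 to -0.90 with a library left out, at the smallest exact p that 3 against 4 can give, 0.0571. APOE entered the choice of the genes, so the p-values of the ratio are not independent of that choice and no conclusion is drawn from them. The cause of the changes given in this paragraph was not tested.

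Counts over all genes moved more. In RPMI/B27 against Day 16 there were 3203 calls, and separate fits made 998 with only the 2 groups and 1388 with RNR1 as a covariate. With rescaling, only the 2 groups, the replicate block, RNR1 and limma-voom, calls were 1945, 45, 721, 727 and 1993 for RPMI_glcM/B27 against RPMI/B27 (354 otherwise), 2083, 81, 732, 1104 and 2484 for HPLM/B27 against RPMI/B27 (388) and 262, 33, 48, 91 and 268 for HPLM/B27 against RPMI_glcM/B27 (11). With a library left out they ranged from 1761 (without replicate 1 of Day 16) to 5012 (without replicate 2 of RPMI/B27), from 143 (without replicate 2 of RPMI_glcM/B27) to 441, from 187 (without replicate 3 of HPLM/B27) to 519, and from 1 to 5. The share of calls that were higher than Day 16 was 10.5%, 15.8% and 11.8% in the order RPMI/B27, RPMI_glcM/B27, HPLM/B27, and 49.2%, 48.6% and 50.8% with rescaling. Against RPMI/B27 the share of higher calls was 61.9% in RPMI_glcM/B27 and 62.9% in HPLM/B27, and 51.2% and 54.6% with rescaling. Of 255 calls in the lists, 197 remained with rescaling and 184 with only the 2 groups, which ended most of the list calls between Day 30 media. Deviations of same-numbered wells had r over 0.1 in 14 of 24 pairs (-0.24 to 0.44), and the own number gave the highest r in 7. The numbers were therefore not taken to pair the wells and the replicate block was only an alternative. Genes called lower than Day 16 numbered 4292, 3820 and 4906 with the block, against 2867, 2862 and 3605 without the block. Under the block APOE in HPLM/B27 against RPMI/B27 was 1.04 (limma adjusted p = 0.000301) and no call among the 6 genes changed. Of the 255 list calls 252 remained, without APOA2 against RPMI/B27 in either medium. APOC1 had too few reads for limma-voom and too low a mean for the 5 TPM filter, as had LRP8 and SORL1 for the latter. APOC1 rested on 79 reads in all, which limits the precision of its comparisons.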
